A study of Caenorhabditis elegans with 4 samples.

Results

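Tubulins are the proteins from which microtubules are built. The 10 alpha- and beta-tubulin genes described here were selected on a result of these same arrays, because tba-8 was higher in isp-1;ceh-23 animals. They were found by matching the array's sequence names to gene symbols. They are tba-1, tba-2, tba-4, tba-8 and mec-12, which encode alpha-tubulins, and tbb-1, tbb-2, tbb-4, tbb-6 and mec-7, which encode beta-tubulins. All 10 passed the filter on dim probes, tba-8 through its signal in isp-1;ceh-23 alone, and are 10 of the 13685 genes tested.

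The comparison set isp-1(qm150);ceh-23(ms23) animals against isp-1(qm150) animals of the nematode Caenorhabditis elegans, and addresses what the homeodomain gene ceh-23 does to transcript levels when the mitochondrial electron transport chain is impaired. Both genotypes carry the qm150 allele of isp-1, the Rieske iron-sulfur protein of complex III, so every value is a difference on an isp-1 background. All animals were whole, synchronized mid-L4 larvae raised at 20 C on OP50 bacteria, and no wild type or ceh-23 single mutant was compared here. Each of 4 two-colour arrays held both genotypes, from 3 biological replicates. The arrays are called A and B (replicate 1, hybridised again with exchanged dyes as A), C (replicate 2) and D (replicate 3). A and B were averaged, so n = 3 for every mean. RNA of isp-1;ceh-23 carried Cy5 on A and C, and Cy3 on B and D. A log2 ratio is isp-1;ceh-23 over isp-1 throughout.

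Alpha- and beta-tubulin pair as dimers, and the dimers polymerise end to end into the protofilaments of a microtubule. In C. elegans tba-1, tba-2, tbb-1 and tbb-2 are broadly used and supply the mitotic spindle of the early embryo. mec-12 and mec-7 encode the alpha- and beta-tubulin of the unusually wide microtubules of the touch receptor neurons, and tbb-4 is expressed in ciliated sensory neurons. tbb-6 is known for its induction when mitochondrial function is impaired, through the p38 kinase PMK-3.

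Over all genes, 461 of 13685 passed an adjusted p of 0.05 in limma (3.37%), of which 106 rose (0.775%) and 355 fell (2.59%). Of these, 459 had an adjusted p between 0.049 and 0.05, so the count moves sharply with small changes in processing. On each array at least 62.2% of spots stood well above background for either genotype, and no spot was saturated. The ceh-23 probe, read without the filter, had a log2 ratio of -0.09 ± 0.10 (SD, n = 3) and was well above background on 2 of 4 arrays in each genotype, and isp-1 itself stood at 0.08 ± 0.10. Where that probe lies relative to the ms23 change is not given in the sources used here, so it does not check the labels.

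tba-8 was the tubulin gene with the highest ratio, and its values chose the family, so all values of tba-8 given here are a description with no test. Its single probe read 366, 455.5, 203 and 210 scanner units on arrays A, B, C and D in isp-1;ceh-23, against 132, 158, 137 and 81 in isp-1. The double mutant was the higher genotype on all 4 arrays, with either dye. Local background was 36 to 61 units in isp-1;ceh-23 and 43 to 67 in isp-1. The probe was well above background on 4 of 4 arrays in isp-1;ceh-23 and on 3 of 4 in isp-1, array C being the exception. Median spot signals of the arrays were 109.5 to 216 units in Cy5 and 164 to 258.5 in Cy3. The isp-1;ceh-23 readings of tba-8 on A and B exceeded these medians, while its isp-1 readings lay towards the lower end of the arrays' range.

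**Figure D1:**
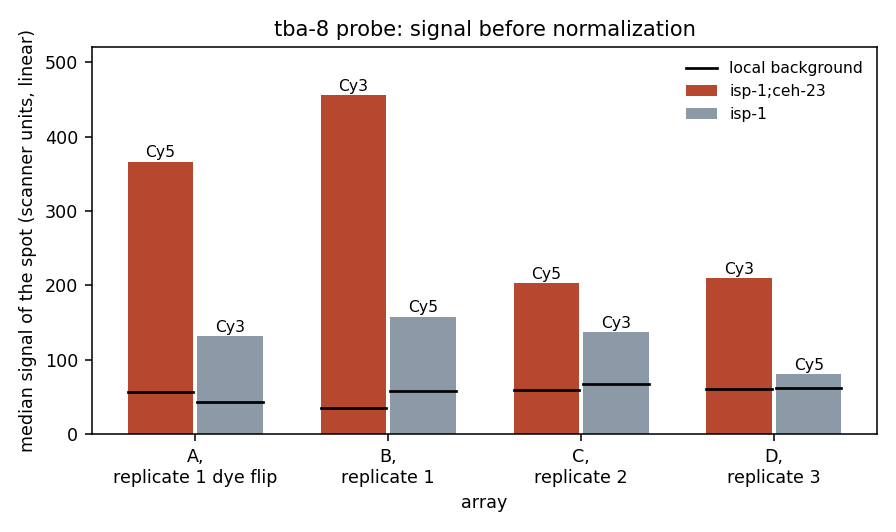
Median signal of the tba-8 probe on each of the 4 arrays, in linear scanner units before normalization, with isp-1;ceh-23 left of isp-1, the dye above each bar and the local background as a black line. The isp-1;ceh-23 bars reach 203 to 455.5 and the isp-1 bars 81 to 158.

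After background correction and loess, the log2 ratio of tba-8 was 1.25, 1.19, 1.31 and 0.69 on A, B, C and D. Its mean was 1.07 ± 0.34 (SD, n = 3), or 2.10-fold. On array C the isp-1 signal behind this ratio was not well above background. Normalized log2 signals in the 3 replicates were 8.56, 8.07 and 7.85 in isp-1;ceh-23, against 7.34, 6.76 and 7.16 in isp-1. The gap between the genotypes was smallest in replicate 3. Arrays A and B differed by 0.06.

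The size of the tba-8 ratio depended on how background was handled. The offset of 50 added before taking logs pulls the ratios of dim probes towards 0. With an offset of 0 the log2 ratio was 1.66, 1.36, 1.95 and 1.28 on A to D, with a mean of 1.58 ± 0.34 (SD, n = 3). The scanner software's own log ratio gave a mean of 2.16 ± 0.41. The mean was positive under every alternative that kept the gene, while the strict filter on dim probes removed it.

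**Figure D2:**
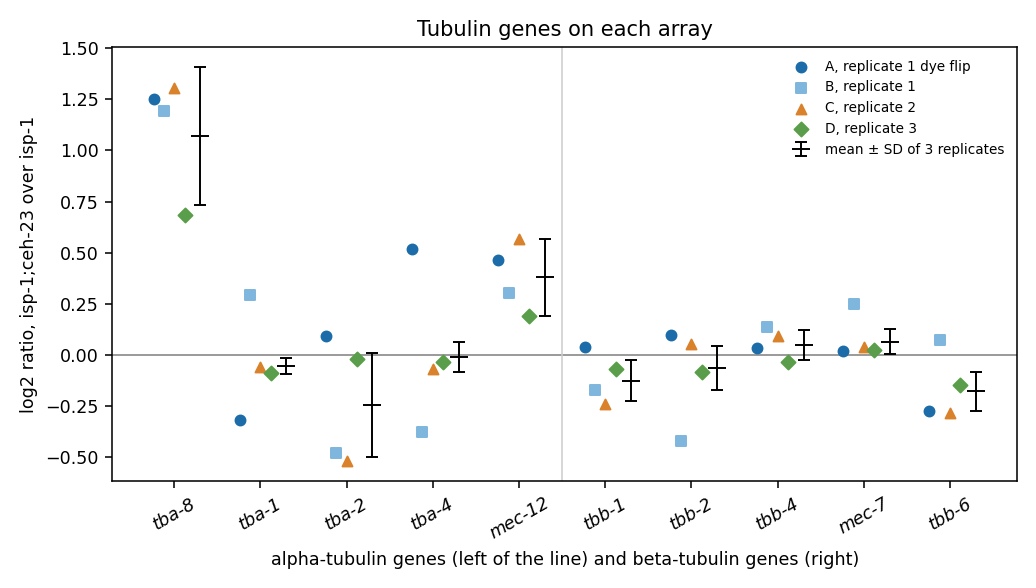
Log2 ratio of isp-1;ceh-23 over isp-1 for the 10 tubulin genes on each array (coloured points), with the mean and SD of the 3 replicates in black; alpha-tubulin genes are left of the line and beta-tubulin genes right. tba-8 lies between 0.69 and 1.31 on all 4 arrays, mec-12 between 0.19 and 0.57, and the other 8 genes have means between -0.24 and 0.06.

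None of the other 9 tubulin genes passed the test over all genes in limma, beside 3.37% of all genes, and 1 of 9, mec-12, had an unadjusted p under 0.05, beside 35.9% of all genes. Their median log2 ratio was -0.05, with 3 of 9 means above 0, against a median of -0.01 over all genes. The 95% interval of the mean lay inside a 1.5-fold change in either direction for 8 of 9, mec-12 being the exception. The share of all genes with such an interval was not counted, so this describes these 9 genes only. By a rule that uses no estimate of spread, a mean of at least 1.5-fold with 1 sign shared by all 4 arrays, 9.27% of all genes qualified and none of these 9 did.

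mec-12, the alpha-tubulin of the touch receptor neurons, was the next highest. Its single probe read 14534, 9027, 2762 and 3754 units on A to D in isp-1;ceh-23, against 9772, 9819, 3514 and 1598 in isp-1. Those signals still carry the dye difference of each array. After normalization its log2 ratio was 0.47, 0.30, 0.57 and 0.19, so that all 4 were above 0. The mean was 0.38 ± 0.19 (SD, n = 3; 95% interval 0.11 to 0.66), a ratio of 1.3-fold that did not pass (limma adjusted p = 0.0814). The adjusted p of mec-12 was 0.028 with dye as a covariate and 0.0067 without replicate 3, and it ran from 0.0067 to 0.484 over the alternatives.

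mec-7, the beta-tubulin partner of mec-12 in those neurons, read 16571.5, 13172, 8159 and 9169.5 units on A to D in isp-1;ceh-23, against 14754, 15322, 13821 and 4328.5 in isp-1. Its log2 ratios were 0.02, 0.25, 0.04 and 0.02. All 4 lay above 0, as they did for tba-8 and mec-12 and for no other member. The share of all genes above 0 on all 4 arrays was not counted. The mean of mec-7 was 0.06 ± 0.06 (SD, n = 3; 95% interval -0.17 to 0.30), and it did not pass (limma adjusted p = 0.645). The difference between mec-12 and mec-7 was not tested.

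Of the 12 touch receptor neuron markers tested, which include genes of the mechanosensory channel, none passed the test, beside 3.37% of all genes. Means were above 0 for 12 of 12, beside 6609 of all 13685 genes. The median log2 ratio of these markers was 0.27. mec-17, an alpha-tubulin acetyltransferase of these neurons, stood at 0.43 ± 0.12 (limma adjusted p = 0.0599), and mec-4, a channel subunit, 0.32 ± 0.05 (limma adjusted p = 0.0828). The 10 pan-neuronal markers had a median of 0.37 and the 8 body wall muscle markers one of 0.27, again with none past the test. The 7 intestine markers had a median of 0.14, and the 13 germline markers a median of -0.78. In RNA of whole animals, more cells of a type, more RNA per cell and less RNA from other tissues cannot be told apart.

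tbb-6, the mitochondrial-stress beta-tubulin, did not pass the test. Its probe read 1355, 1337, 814 and 936 units on A to D in isp-1;ceh-23, against 1681, 1580, 1904 and 526 in isp-1, well above background everywhere. The log2 ratios of tbb-6 were -0.27, 0.07, -0.28 and -0.15. Arrays A and B thus fell on either side of 0. The mean of tbb-6 was -0.18 ± 0.09 (SD, n = 3; 95% interval -0.42 to 0.06), and it did not pass (limma adjusted p = 0.241). Of 6 tested genes of the PMK-3 cascade none passed, beside 3.37% of all genes. Their median was 0.22, with 5 of 6 means above 0. rpm-1, a ubiquitin ligase acting on that cascade, had 0.35 ± 0.06 (limma adjusted p = 0.0714) and the kinase gene dlk-1 0.36 ± 0.19 (limma adjusted p = 0.0895). pmk-3 itself stood at 0.22 ± 0.19 and uev-3, below 0, at -0.27 ± 0.31 (limma adjusted p = 0.215 and 0.214).

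tbb-4, the beta-tubulin of ciliated sensory neurons, read 677, 723.5, 505.5 and 560 units on A to D in isp-1;ceh-23, against 641, 793.5, 871 and 297 in isp-1. Its log2 ratios were 0.03, 0.14, 0.09 and -0.04. The mean of tbb-4 was 0.05 ± 0.07 (SD, n = 3; 95% interval -0.19 to 0.28), which did not pass (limma adjusted p = 0.746) and had the opposite sign under median centring, at -0.0052. Of 8 ciliated neuron markers tested none passed, beside 3.37% of all genes, and their median was 0.06. A further 7 of the 15 listed were too dim to test.

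The alpha-tubulins tba-1, tba-2 and tba-4 had means between -0.24 and -0.01. tba-1, read by 3 probes, had log2 ratios of -0.32, 0.29, -0.06 and -0.09 on A to D, with a mean of -0.05 ± 0.04 (SD, n = 3; limma adjusted p = 0.7). tba-4, read by 1 probe, had 0.52, -0.38, -0.07 and -0.04, with a mean of -0.01 ± 0.07 (limma adjusted p = 0.934). The SDs are over replicate values, and for tba-1 and tba-4 the value of replicate 1 averages arrays A and B of opposite sign. The gap of 0.89 between those arrays for tba-4 was larger than for 95.7% of all genes, and the sign of its mean turned in 5 of the alternatives.

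tba-2 had the lowest mean of the family, and its value rested on which replicate was read. Its log2 ratios were 0.09, -0.48, -0.52 and -0.02 on A to D, for a mean of -0.24 ± 0.25 (SD, n = 3; 95% interval -0.55 to 0.06) that did not pass (limma adjusted p = 0.212). In replicate 3 the brightest of its 3 probes was an outlier spot and was left out, so that value averages the other two. Without replicate 3 the adjusted p of tba-2 was 0.0338, at a log2 ratio of -0.36, and over the alternatives it ran from 0.0338 to 0.727.

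tbb-1 and tbb-2, the broadly used beta-tubulins, did not pass the test. Their intervals stayed inside a 1.5-fold change, but the share of all genes with such an interval was not counted. tbb-1, with 2 probes, had log2 ratios of 0.04, -0.17, -0.24 and -0.07 on A to D, with a mean of -0.13 ± 0.10 (SD, n = 3; limma adjusted p = 0.389). tbb-2, with 6 probes, had 0.10, -0.42, 0.05 and -0.08, with a mean of -0.06 ± 0.11 (limma adjusted p = 0.664). For 6 of the 10 tubulin genes, tba-8 not among them, arrays A and B gave opposite signs, beside a smaller share of all genes, 33.1%.

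**Figure D3:**
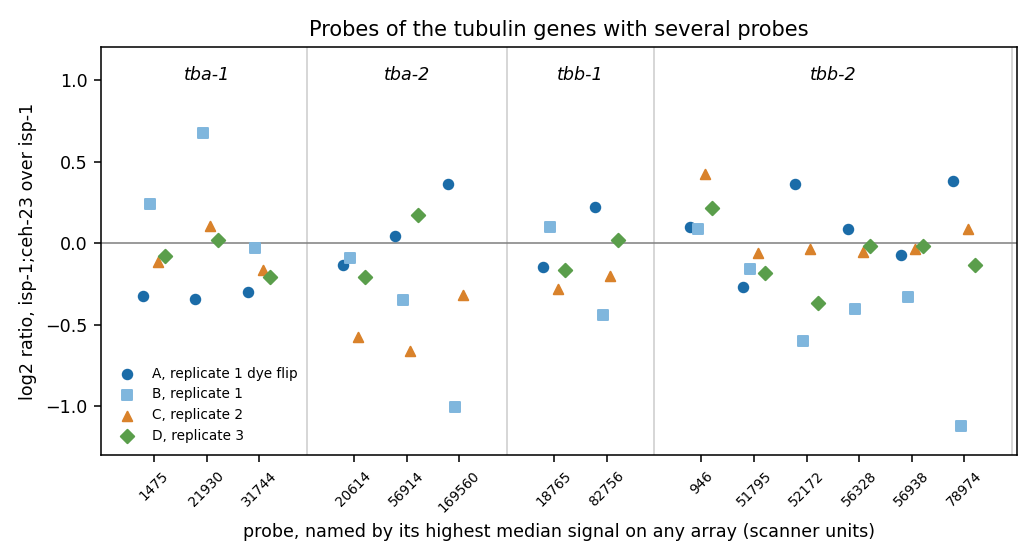
Log2 ratio of isp-1;ceh-23 over isp-1 on each array for every probe of the 4 tubulin genes with several probes, each probe named by its highest signal in scanner units and ordered by it within the gene. The rightmost probes of tba-2 and tbb-2, those with the highest single readings, show the widest gaps between arrays A and B, at 1.37 and 1.5.

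The probes of one gene did not always move together. The tbb-2 probe with the lowest signal, 226 to 946 units, had a mean log2 ratio of 0.24 ± 0.17 (SD, n = 3) and was above 0 on all 4 arrays, while the other 5 had means between -0.17 and -0.08. The tbb-2 probe with the highest single reading had 53979 and 23839.5 units on A and B in isp-1;ceh-23, against 33518 and 78974 in isp-1, and its log2 ratios there were 0.38 and -1.12. One of the 3 tba-1 probes had a mean of 0.10 ± 0.08 and the others -0.18 ± 0.03 and -0.08 ± 0.04. Probe sequences were not used here, so signal shared between near-identical tubulin genes was not tested.

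None of the remaining tubulin genes tested was called, where 3.37% of all genes were. tbg-1, the gamma-tubulin that nucleates microtubules, had log2 ratios of -0.52, -0.25, -0.69 and -0.21 on A to D, all below 0, with a mean of -0.43 ± 0.24 (SD, n = 3; limma adjusted p = 0.0782). It passed with dye as a covariate, at a limma adjusted p of 0.0235, where dye and replicates 2 and 3 cannot be told apart. It also passed without replicate 3, at 0.00481, in a range up to 0.484. The alpha-tubulins tba-7, tba-9 and tba-6 had means of 0.14 ± 0.09, 0.02 ± 0.02 and -0.01 ± 0.09. Both tba-6 and tba-9 changed sign in 2 alternatives. The value of replicate 1 for tba-9 averages -0.31 on A and 0.41 on B. For tba-6 only 1 of 3 probes passed the filter, at 82 to 149 units, where the offset pulls ratios towards 0. tba-5 was not well above background on any array. ben-1, the beta-tubulin known as the benomyl target, was added after its values were seen and had -0.14 ± 0.19 (limma adjusted p = 0.393).

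The genes that fold, modify or organise tubulin are set here beside the 2.59% of all genes that fell and the 0.775% that rose. None of 17 chaperonin, prefoldin and cofactor genes passed, with a median of -0.04, and tbce-1, a tubulin-folding cofactor, stood at -0.48 ± 0.23 (limma adjusted p = 0.0659). None of 8 modifying enzymes and none of 13 dynein and dynactin genes passed, with medians of 0.08 and -0.11. Of 22 genes of nucleation and dynamics 2 fell, the katanin subunit gene mei-2 at -1.32 ± 0.41 and the spastin gene spas-1 at -0.58 ± 0.13 (limma adjusted p = 0.0495 for each). Of 19 kinesins 3 fell, klp-15 at -0.78 ± 0.28, klp-19 at -0.72 ± 0.23 and the light chain gene klc-1 at -0.92 ± 0.38 (limma adjusted p = 0.0495 for each). These 5 calls were lost in 8 to 11 of the 39 alternatives, among them median centring, no background correction and no filter. Many of the 39 are combinations of outlier-spot settings run with the count of calls in view. All but 3 of those combinations gave 461 to 679 calls, so the number of lost calls does not measure stability.

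Germline and sperm markers were lower on the same arrays. All 13 germline markers had means below 0, beside 51.7% of all genes, with a median of -0.78, and 5 fell, among them the oocyte RNA-binding protein gene puf-5 at -1.90 ± 0.71 (SD, n = 3; limma adjusted p = 0.0495). All 10 sperm markers were below 0, with a median of -0.62, and 3 fell, where 2.59% of all genes did. mei-2, klp-15 and klp-19 act in the meiotic or mitotic spindle, and the part of germline content or developmental stage in any tubulin value was not tested. The germline median was -0.90, -1.13 and -0.32 in replicates 1, 2 and 3. Replicate 3 was also the closest to 0 for the pan-neuronal median (0.46, 0.45 and 0.19) and the touch neuron median (0.30, 0.25 and 0.15). Among the tubulin genes it was the closest for tba-8 (1.22, 1.31 and 0.69), mec-12 (0.38, 0.57 and 0.19) and tba-2 (-0.20, -0.52 and -0.02). The same held for tba-4, mec-7 and tbb-4. It did not hold for tba-1 (-0.01, -0.06 and -0.09), tbb-6 (-0.10, -0.28 and -0.15), tbb-1 or tbb-2. Of 12 epidermis and seam markers 1 rose (0.775% of all genes did), the nuclear receptor gene nhr-25 at 0.79 ± 0.15 (limma adjusted p = 0.0495), with a median of 0.21. The calls on puf-5 and nhr-25 were lost in 8 and 9 of the 39 alternatives, which again hold many similar combinations of outlier-spot settings.

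tba-8 lies on chromosome X, where tbb-4 and mec-7 also lie, and 5 protein-coding genes separate it from tbb-4. Of the 3 genes on either side of it, ZK899.2 and gap-2, a GTPase-activating protein gene, were tested, while the single probe of each of the other 4 did not pass the filter on dim probes. The tested ones stood at -0.02 ± 0.08 and 0.10 ± 0.06 (SD, n = 3; limma adjusted p = 0.897 and 0.48). The 5 genes whose ratios over the 4 arrays were nearest to those of tba-8, by Euclidean distance, were F45D11.14 at 0.34, T01D3.3 at 0.36, the asparagine synthetase gene asns-2 at 0.41, the fatty-acid- and retinol-binding protein gene far-7 at 0.43 and the collagen gene col-169 at 0.51. They were picked for this likeness, and their mean log2 ratios ran from 0.89 for col-169 to 1.17 for F45D11.14. Those nearest to tbb-6 were dnj-25, D1014.4, ctf-18, mff-2 and cdc-48.2, at distances of 0.06 to 0.08.

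**Figure D4:**
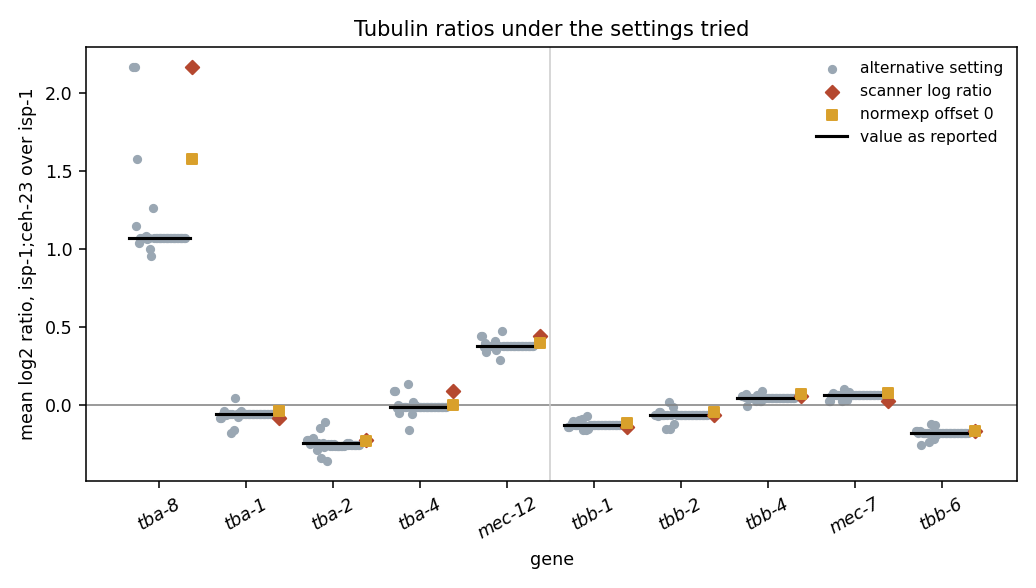
Mean log2 ratio of isp-1;ceh-23 over isp-1 for each tubulin gene as reported (black line) and under every alternative setting (grey points), with the scanner's own log ratio (red) and an offset of 0 (yellow) marked. tba-8 runs from 0.95 to 2.16 and mec-12 from 0.29 to 0.48, while the other 8 genes stay between -0.36 and 0.14.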

How the data were processed

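Per the labels, total RNA of mid-L4 animals was amplified from 100 ng and labelled with Cy3 and Cy5. Per the file headers, the authors quantified the arrays with Agilent Feature Extraction 10.5.1.1 (protocol GE2_105_Dec08, design build ce4). The deposited files hold the median intensity of each spot and its local background, neither corrected nor normalized, together with flags other than intensities and log10 ratios (Cy5 over Cy3, after the software's own processing). The deposited series table holds these log10 ratios, within 0.005.

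In R 4.3.3 with limma 3.58.1, intensities were background-corrected by normexp with an offset of 50, normalized by loess within arrays and turned to isp-1;ceh-23 over isp-1 by the labelled dyes. Control spots and outlier spots had weight 0 in the loess, and outlier spots were left out. Probes well above background in all 3 replicates of at least 1 genotype were kept (either array sufficed in replicate 1), and kept probes of a gene were averaged. Of 43803 spots, 35373 could be named through the RefSeq table of assembly WBcel235. The 2 arrays of replicate 1 were averaged, and lmFit and eBayes tested 3 values against 0, two-sided, with Benjamini-Hochberg adjustment over 13685 genes at 0.05. The number of arrays limits the precision.

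The members, lists and rules were chosen with earlier results of these data known. The plan named weight 0 for control spots only. After the first fit gave 2 calls, 24 combinations of settings for outlier spots and for probes with several spots were run with the count of calls in view. It ran from 2 to 679. The combination reported was chosen because it gave the count of an earlier processing of these data, 461. None of the 9 tubulin genes passed in any of the 24, and the tba-8 ratio was the same in each. Named genes were the 10 members, other tubulins, up to 4 genes of smallest p per list, the neighbours of tba-8 and the genes nearest to tba-8 and tbb-6. Replicates were separate biological samples per the labels. Replicate 1 lay on 1 slide and replicates 2 and 3 on another, so slide and replicate 1 cannot be told apart. No sequences or coordinates are given, as no genome of the design's build was used here.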

Additional observations from a re-analysis of the deposited data

How the results depend on the processing

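The number of genes past an adjusted p of 0.05, 461 as reported (106 higher and 355 lower), was 1734 with the scanner's log ratio (758 higher and 976 lower), 1736 with the series table (759 higher and 977 lower), 1485 with an offset of 0 (419 higher and 1066 lower), 749 with the strict filter, 977 with 1 probe per gene, that of highest mean log2 signal over the arrays, 4151 with dye as a covariate (1382 higher and 2769 lower), and 733 or 777 with the dye-flip or the first array alone for replicate 1 (115 higher and 618 lower with the dye-flip array). It was 2 without background correction, 1 without a filter, 1 with outlier spots kept and 0 under median centring (1481 at an unadjusted p under 0.05). It ran from 1 to 5938 when a replicate was left out. In combinations added after seeing the data, it was 2 in the 3 that gave outlier spots full weight in loess, counted them in the filter and averaged probes as measured, and 461 to 679 in the others. Of the 9 tubulin genes, 1 (mec-12) passed with dye as a covariate, and 0 to 2 passed when a replicate was left out, the 2 without replicate 3 being mec-12 and tba-2. With dye as a covariate, dye and the difference between replicates 2 and 3 cannot be told apart. Genes with one sign on all arrays and at least 1.5-fold numbered 1268 as reported, 2394 with the scanner's log ratio, 2394 with the series table, 842 under median centring and 940 to 2428 when a replicate was left out. Signs turned for tba-4 (0.087 with the scanner's log ratio, 0.088 with the series table, 0.0019 with an offset of 0, 0.14 with the dye-flip array alone), ZK899.2 (0.097 with the scanner's log ratio, 0.097 with the series table, 0.014 with the first array alone), tbb-4 (-0.0052, median centring), tba-9 (-0.042, median centring; -0.10, dye-flip array alone), tba-6 (0.035 without a filter), tbb-2 (0.022, dye-flip array alone) and tba-1 (0.049, first array alone). With a replicate left out, tba-4 ran from -0.054 to 0.017, tba-6 from -0.054 to 0.039 and ZK899.2 from -0.066 to 0.00986, each positive without replicate 2. The tba-8 ratio was 2.16 with the scanner's log ratio, 1.58 with an offset of 0 and 0.95 to 1.26 when a replicate was left out. The test is paired as it stands, since each array holds both genotypes of 1 replicate and the log2 ratios were formed within arrays. The cause of these shifts was not tested.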
